A study of Rattus norvegicus with 8 samples.

Results

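The genes described here are Nr5a1, Nr0b1, Nr4a1, Inha, Inhba and Vnn1 in the adrenal gland of the neonatal rat. Each was taken by its gene symbol in the array's annotation, and each had 1 probe set of its own, so 6 of the 10411 genes named by a single symbol on the array are covered. They were selected on the hypoxic-minus-normoxic differences of these same arrays together with their known roles. For the 6 genes those differences are therefore a description, given with errors and without p-values.

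The hypoxic group consisted of rat pups kept with their dams in 12% O2 from birth to postnatal day 7, and the normoxic group of pups of the same age kept with dams in room air and fed ad libitum. Strain, sex and the spread of litters over samples are not given in the sources used here, and no genotype or other treatment was named for either group. Glands were stripped of their capsule and frozen, and 24 of them were pooled per sample. There were 4 hypoxic and 4 normoxic pools, each read on 1 single-colour oligonucleotide array. Nothing in the labels says how far pools were independent of each other beyond being separate samples, so p-values measure the spread between these pools.

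Steroidogenic factor 1 (SF-1), the nuclear receptor encoded by Nr5a1, is required for the adrenal cortex to form and drives the genes of steroid synthesis there. DAX-1, encoded by Nr0b1, lacks the usual DNA-binding zinc fingers and represses transcription by SF-1, while Nr0b1 is itself an SF-1 target. NUR77, encoded by Nr4a1, is a related orphan receptor that ACTH, the pituitary hormone acting on the cortex, induces quickly. SF-1 and NUR77 each bind DNA as a monomer at an AGGTCA core with extra bases on its 5′ side.

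The region before the transcription start is shown for the 3 receptor genes and for Inha, because SF-1, cAMP signalling and hypoxia-inducible factors are known to act through short motifs of the kinds searched there. The sequences are the 250 bases before the start annotated by RefSeq on rat assembly GRCr8, written 5′ to 3′ on the gene's strand. RefSeq windows were found for 5 of the 6 genes. Capitals mark matches, on either strand, to AGGTCA, to CGTCA (the core shared by cAMP response elements such as TGACGTCA) and to the E box CACGTG, which holds the hypoxia response core ACGTG.
Nr5a1, chr3:42896047-42896296, minus strand: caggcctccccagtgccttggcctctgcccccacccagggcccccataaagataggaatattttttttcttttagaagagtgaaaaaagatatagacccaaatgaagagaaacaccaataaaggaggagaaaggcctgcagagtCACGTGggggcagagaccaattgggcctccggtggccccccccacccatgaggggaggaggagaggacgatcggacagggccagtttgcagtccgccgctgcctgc
Nr0b1, chrX:54707408-54707657, plus strand: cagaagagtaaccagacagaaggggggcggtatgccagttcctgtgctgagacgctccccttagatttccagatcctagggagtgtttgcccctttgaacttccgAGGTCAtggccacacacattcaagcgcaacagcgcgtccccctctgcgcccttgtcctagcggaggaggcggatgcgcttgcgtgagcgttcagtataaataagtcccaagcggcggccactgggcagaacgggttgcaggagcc
Inha, chr9:84442859-84443108, plus strand: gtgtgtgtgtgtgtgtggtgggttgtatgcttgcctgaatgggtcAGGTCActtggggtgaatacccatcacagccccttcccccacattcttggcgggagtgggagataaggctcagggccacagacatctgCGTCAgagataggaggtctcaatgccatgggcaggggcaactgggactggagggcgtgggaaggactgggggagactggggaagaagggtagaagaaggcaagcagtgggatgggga
Nr4a1, chr7:134259888-134260137, plus strand: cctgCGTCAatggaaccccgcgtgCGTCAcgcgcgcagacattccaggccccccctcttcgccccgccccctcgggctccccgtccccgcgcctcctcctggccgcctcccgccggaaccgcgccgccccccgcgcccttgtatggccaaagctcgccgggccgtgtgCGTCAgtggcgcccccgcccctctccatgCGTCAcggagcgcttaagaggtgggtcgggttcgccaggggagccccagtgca

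The Nr5a1 window held 1 E box, beginning 106 bases before the start. Of 33469 RefSeq windows of the same length, 5.59% held CACGTG and 16.6% held ACGTG. The Nr0b1 window held 1 AGGTCA, beginning 145 bases before the start, and the Inha window held 1 AGGTCA, 205 bases before it, and 1 CGTCA, 117 bases before it. The core AGGTCA stood in 14.1% of all windows and CGTCA in 18.2%. The Nr4a1 window held 4 copies of CGTCA, beginning 246, 226, 82 and 53 bases before the start. The longer forms AAGGTCA (3.99% of all windows), AAAGGTCA (1.24%) and TGACGTCA (1.59%) were not among the letters of these windows, and the window of Inhba held none of the motifs searched. A match of letters is not evidence of binding.

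Values below are probe set intensities in arbitrary units, which the authors appear to have scaled to a common mean. Array medians lay between 228.6 and 249.2. Background was read from probe sets for bacterial genes, whose median was 5.4 and whose 95th percentile was 46.7. Fold changes are differences in log2(intensity + 16), hypoxic minus normoxic, with the standard error of a limma fit across all tested probe sets. All 6 genes passed the filter on dim probe sets. In limma 1 of the 6, Vnn1, passed an adjusted p of 0.05 and was higher, while 0.18% of 11106 tested probe sets passed (0.117% higher and 0.063% lower in hypoxic pools). Vnn1 was also the 1 gene of the 6 whose groups did not overlap, which held for 5.39% of tested probe sets (2.76% higher and 2.64% lower in hypoxic pools). Since the choice of genes used this contrast, nothing is read from these counts. Precision is limited by the small number of arrays.

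Defining markers of cortex and medulla were bright in every pool. The steroidogenic cortex genes were all on the array and well above the bacterial controls, led by Fdx1, Cyp21a1 and Cyp11a1. Their summed intensity ranged from 87860 to 130600 in hypoxic pools and from 89030 to 121500 in normoxic pools. The chromaffin genes, led by Pnmt, Th and Chga, summed to between 43770 and 59910 in hypoxic pools and between 37360 and 49530 in normoxic pools, and all 11 on the array had the higher mean in hypoxic pools. Brown and white fat genes, led by Fabp4, were present too, at 2965 to 8838 in hypoxic pools and 4005 to 12520 in normoxic pools, and all 8 on the array had the lower mean in hypoxic pools. The groups overlapped for all 12 marker lists, whose lowest exact permutation p was 0.143 (two-sided, 4 pools against 4, smallest possible 0.0286). The part of cell content in the values of the 6 genes was not tested. In pools of whole tissue, fewer cells of a type and less RNA per cell cannot be told apart.

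Nr5a1 had the largest within-group spread of the 6 genes on the log2 scale. It measured 364, 1313, 1077 and 1187 in hypoxic pools 1 to 4, against 713, 915, 1534 and 1314 in normoxic pools 1 to 4. Hypoxic pool 1 lay far below every other pool, and the groups overlapped between 713 and 1313. The means were 985 ± 425 in hypoxic and 1119 ± 372 in normoxic pools (SD, n = 4 each), with a log2 difference of -0.27 with a standard error of 0.36. Without hypoxic pool 1 the difference was 0.15, so its sign rested on that pool. Its within-group SD, 0.69 on the log2 scale, was larger than that of 99.8% of the 1000 tested probe sets closest to it in mean level.

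**Figure D1:**
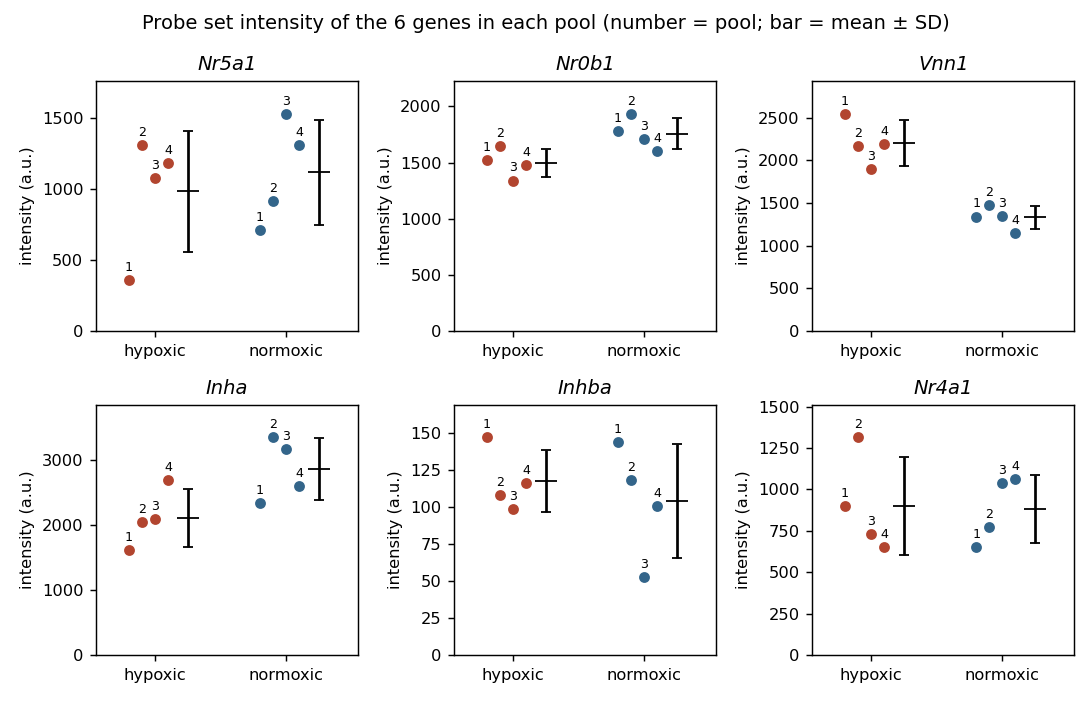
Probe set intensity (arbitrary units, axes from 0) of each of the 6 genes in the 4 hypoxic pools (left) and 4 normoxic pools (right), numbered by pool, with mean ± SD. Vnn1 is the gene whose groups do not overlap, and Nr5a1 in hypoxic pool 1, at 364, lies far below the other pools.

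Of 2 measures of RNA integrity, 1 was lowest in the same pool of each group as Nr5a1. The 5′ over 3′ ratio of the beta-actin control probe sets falls when RNA is degraded or copied incompletely. It was 0.249, 0.491, 0.713 and 0.528 in hypoxic pools 1 to 4, against 0.413, 0.598, 0.744 and 0.674 in normoxic pools 1 to 4. The pool with the lowest ratio in each group, pool 1, was also the pool with the lowest Nr5a1. Within groups, log2 Nr5a1 and the log2 ratio had a Pearson r of 0.894 over 8 pools (exact permutation within groups p = 0.0208, adjusted p = 0.125 over 12 relations, two-sided) and a Spearman rho of 0.619 (p = 0.161, adjusted p = 0.425). Leaving out the pools with the most extreme ratios brought r to 0.162, so the relation rested on those 2 pools. Adjusted for the beta-actin ratio, the log2 difference of Nr5a1 was 0.11, and with the Gapdh ratio, which had an r of 0.275 with it, -0.06. In hypoxic pools 1 to 4 the Gapdh ratio was 0.618, 0.602, 0.556 and 0.659. In normoxic pools 1 to 4 it was 0.639, 0.587, 0.731 and 0.701. The Gapdh ratio was thus lowest in hypoxic pool 3 and normoxic pool 2, and pool 1 was not the lowest of either group. The part of RNA integrity in the Nr5a1 values was not tested beyond this.

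**Figure D2:**
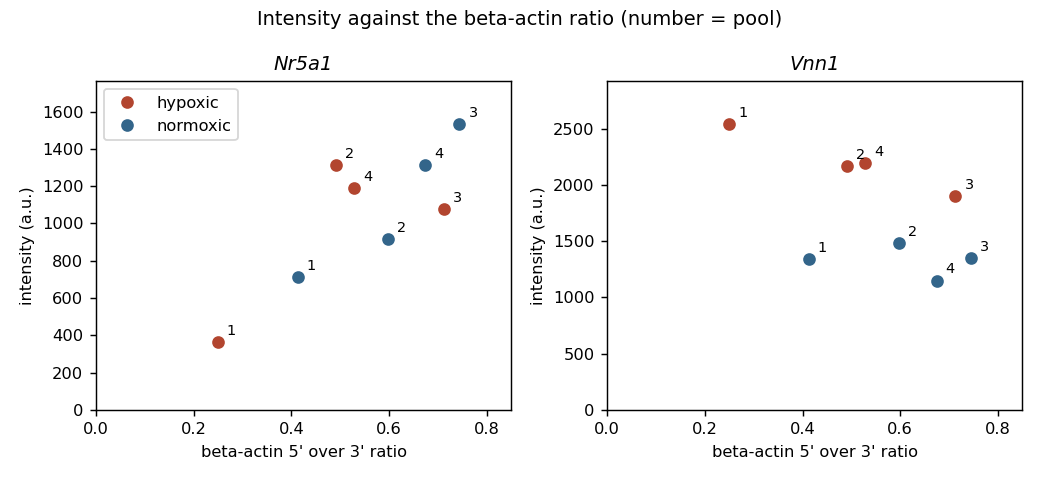
Intensity of Nr5a1 (left) and Vnn1 (right) against the beta-actin 5′ over 3′ ratio of the same array, with hypoxic and normoxic pools in separate colours and numbered. Hypoxic pool 1, at a ratio of 0.249, has the lowest Nr5a1 and the highest Vnn1, and every hypoxic pool lies above every normoxic pool for Vnn1.

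Nr0b1, the gene of the repressor DAX-1, was even across pools and a little lower in hypoxic glands. It measured 1521, 1647, 1340 and 1476 in hypoxic pools 1 to 4, against 1779, 1934, 1708 and 1606 in normoxic pools 1 to 4. The groups overlapped by a single pair, since hypoxic pool 2 lay above normoxic pool 4. The means were 1496 ± 127 in hypoxic and 1757 ± 138 in normoxic pools (SD, n = 4 pools each), and the log2 difference was -0.23 with a standard error of 0.10. It was below 0 with each of the 8 pools left out in turn, from -0.28 to -0.18, and was -0.27 with either ratio as a covariate. Its within-group SD of 0.12 exceeded that of 24.6% of the 1000 probe sets closest in level. Within groups Nr0b1 and the beta-actin ratio had an r of -0.424 and a rho of -0.714 (exact permutation p = 0.349 and 0.0903, adjusted p = 0.694 and 0.425 over 12 relations), and r was -0.828 without the 2 pools of most extreme ratio. Hypoxic pool 1, so low for Nr5a1, lay inside the range of its group for Nr0b1.

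Nr4a1, the ACTH-induced receptor gene, did not separate the groups. It measured 898, 1314, 729.9 and 654 in hypoxic pools 1 to 4, against 649, 773, 1039.7 and 1064 in normoxic pools 1 to 4. Each group held both low and high pools, with hypoxic pool 2 the highest of all. The means were 899 ± 295 in hypoxic and 881 ± 204 in normoxic pools (SD, n = 4 each), with a log2 difference of 0.01 with a standard error of 0.21. Its sign changed with the pool left out, 4 ways above 0 and 4 below.

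The other members of the same receptor family are named here after their values were seen. Nr4a2 averaged 158 ± 22.8 in hypoxic and 177 ± 31.5 in normoxic pools (SD, n = 4 each), with a log2 difference of -0.15 (limma, adjusted p = 0.859). Nr4a3 had 2 tested probe sets that did not behave alike. The brighter one averaged 828 ± 387 in hypoxic and 731 ± 107 in normoxic pools, with its highest value, 1347, in hypoxic pool 2, as for Nr4a1. The dimmer one measured 376, 112, 120.2 and 70 in hypoxic pools 1 to 4, against 399.7, 428, 433 and 625 in normoxic pools 1 to 4. All hypoxic pools lay below all normoxic pools there, with a log2 difference of -1.62 and a standard error of 0.36, which did not pass over all probe sets (limma, adjusted p = 0.159). The brighter probe set differed by 0.08 (limma, adjusted p = 0.965). The transcript forms read by these 2 probe sets were not analysed here.

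Among the targets, Inha was lower in most hypoxic pools. It encodes the alpha subunit of inhibin, a protein that opposes activin, and is expressed in the adrenal cortex, where SF-1 and cAMP raise it. Inha measured 1609.9, 2044, 2084 and 2698 in hypoxic pools 1 to 4, against 2332, 3347, 3165 and 2592 in normoxic pools 1 to 4. Hypoxic pools 1 to 3 lay below every normoxic pool, while hypoxic pool 4 lay inside the normoxic range. The means were 2109 ± 447 in hypoxic and 2859 ± 476 in normoxic pools (SD, n = 4 each), with a log2 difference of -0.44 with a standard error of 0.16. It stayed below 0 with each pool left out, from -0.57 to -0.32, the smallest being without hypoxic pool 1, and was -0.33 adjusted for the beta-actin ratio. Within groups Inha and that ratio had an r of 0.667 (exact permutation p = 0.125, adjusted p = 0.375 over 12 relations), which was -0.266 without the 2 pools of most extreme ratio.

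Inhba encodes the beta A subunit, which pairs with the alpha subunit to form inhibin A and with itself to form activin A. It was dim, in the lowest 3.4% of tested probe sets by mean level. Inhba measured 147, 109, 98.8 and 116 in hypoxic pools 1 to 4, against 144, 119, 52.7 and 100.5 in normoxic pools 1 to 4. The groups overlapped, and normoxic pool 3 lay near the 95th percentile of the bacterial controls. The means were 118 ± 21.0 in hypoxic and 104 ± 38.7 in normoxic pools (SD, n = 4 each), with a log2 difference of 0.21 with a standard error of 0.25 that became -0.04 without normoxic pool 3. For Inhba the sign of the difference therefore rested on that pool. With all pools kept, the difference was 0.0021 adjusted for the beta-actin ratio and 0.0068 adjusted for the Gapdh ratio. Within groups Inhba and the beta-actin ratio had an r of -0.706 and a rho of -0.881 (exact permutation p = 0.0139 and 0.00868, adjusted p = 0.125 and 0.104 over 12 relations). That r was -0.583 without the 2 pools of most extreme ratio. The part of RNA integrity in the Inhba values was not tested beyond this.

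Vnn1 was the gene of the set with the clearest difference. It encodes vanin-1, a pantetheinase anchored to the cell surface that splits pantetheine into pantothenate and cysteamine, and in the mouse adrenal it is a target of SF-1. Vnn1 measured 2546, 2167, 1903 and 2194 in hypoxic pools 1 to 4, against 1342, 1481, 1350.5 and 1151 in normoxic pools 1 to 4. Every hypoxic pool lay above every normoxic pool, with a gap of 422 between the groups. The means were 2202 ± 264 in hypoxic and 1331 ± 136 in normoxic pools (SD, n = 4 each), with a log2 difference of 0.72 with a standard error of 0.11, or 1.64-fold. With each pool left out the difference ranged from 0.65 to 0.78, and it was 0.64 adjusted for the beta-actin ratio and 0.70 adjusted for the Gapdh ratio. Within groups Vnn1 and the beta-actin ratio had an r of -0.706 and a rho of -0.643 (exact permutation p = 0.092 and 0.127, adjusted p = 0.368 and 0.425 over 12 relations), and r was -0.618 without the 2 pools of most extreme ratio. The part of RNA integrity in the Vnn1 values was not tested beyond this.

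The place of Vnn1 among the probe sets past the limma threshold, counted above as a description and not as a test of it, was kept in 1 of the 8 ways to leave out a pool, without hypoxic pool 1. It was lost with the Gapdh ratio as a covariate, with no filter on dim probe sets and with no variance trend, where 0 of all probe sets passed.

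Vnn1 is also known to be expressed in kidney and liver, so markers of both were summed. Kidney marker genes, led by Miox, Lrp2 and Slc34a1, summed to between 294 and 347 in hypoxic pools and between 319 and 429 in normoxic pools over 7 genes, of which 3 averaged above the 95th percentile of the bacterial controls. Liver marker genes, led by Hp, Alb and Ahsg, summed to 4683, 1655, 2285 and 1540 in hypoxic pools 1 to 4, against 1572, 1991, 2835 and 2839 in normoxic pools 1 to 4. Hypoxic pool 1 was the highest for liver genes and for Vnn1. Normoxic pools 3 and 4 were nearly equal and the highest of their group for liver genes, with Vnn1 at 1350.5 and 1151. The part of other tissue in the Vnn1 values was not tested. None of the 86 marker genes on the array was at 0 in any pool, but a value above 0 does not show expression. Some averaged below the 95th percentile of the bacterial controls, such as the kidney gene Kap at 7.9.

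**Figure D3:**
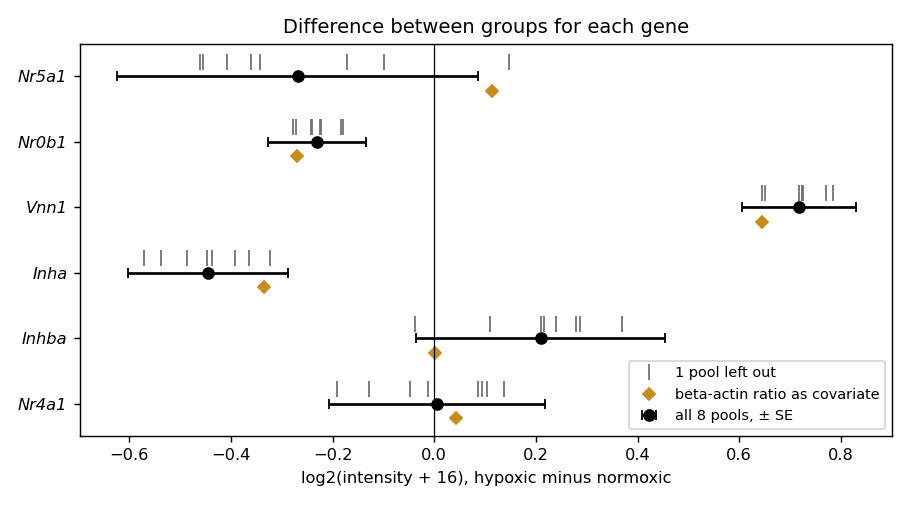
Log2 difference in intensity, hypoxic minus normoxic, for each of the 6 genes: black points with bars are all 8 pools ± the standard error of the fit, grey ticks leave out 1 pool each, and diamonds are adjusted for the beta-actin ratio. Vnn1 stays between 0.65 and 0.78 and Nr0b1 and Inha stay below 0 with each pool left out, while Nr5a1, Inhba and Nr4a1 cross 0.

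How the 6 genes varied together within groups was tested over 15 pairs, each on log2 values with the group mean removed. In 0 of 15 pairs did the correlation pass an adjusted p of 0.05 (exact permutation within groups, 8 pools, two-sided), and 1 had an unadjusted p under 0.05. The lowest adjusted p was 0.13, for Nr5a1 and Inhba, with an r of -0.712 and a rho of -0.786 (exact permutation p = 0.00868 and 0.026, adjusted p of rho = 0.391), and r was -0.747 without the 2 pools farthest from the median of Nr5a1. With the beta-actin ratio Nr5a1 had an r of 0.894 and Inhba of -0.706 (exact permutation p = 0.0208 and 0.0139). Neither passed after adjustment (adjusted p = 0.125 for each). Nr5a1 and its repressor gene Nr0b1 had an r of -0.213 and a rho of -0.0476 (exact permutation p = 0.655 and 0.948, adjusted p = 0.863 and 0.948). Nr0b1 and Vnn1 had an r of 0.726 and a rho of 0.548 (exact permutation p = 0.0729 and 0.227, adjusted p = 0.547 and 0.628), with an r of 0.88 without the 2 pools farthest from the median. Nr5a1 had an r of -0.639 with Vnn1 and of 0.662 with Inha (exact permutation p = 0.179 and 0.132, adjusted p = 0.671 and 0.66), and these became -0.296 and -0.278 without the 2 farthest pools, which held hypoxic pool 1.

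The genes most like each of the 6 across the 8 pools, with group means removed, are given as a description, since with so few pools high correlations arise among 8010 genes. For Nr5a1 these were Lpcat3, RT1-DMa and Abcd3 (r of 0.989, 0.985 and 0.985), and 120 genes had an r above 0.9 with it. For Nr0b1 they were Btbd9, Pcnt and Sostdc1 (r of 0.959, 0.95 and 0.944), with 21 genes above 0.9. Vnn1 was most like Edn1, Ccndbp1 and Flvcr2 (0.985, 0.962 and 0.959, with 28 above 0.9). Inha was most like Ist1, Resp18 and Vac14 (0.987, 0.981 and 0.971, with 60 above 0.9). Inhba was most like Mrpl27, Itgae and Tnrc18 (0.974, 0.957 and 0.956), and Nr4a1 was most like Vps54, Fbxo3 and Fam241b (0.978, 0.972 and 0.962). The beta-actin ratio is a single value per array, and 5.53% of tested probe sets had an r above 0.8 with it. No share expected by chance is given here, and the part of RNA integrity in these likenesses was not tested.

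The SF-1 target genes of steroid synthesis and cholesterol entry were next examined, with genes at their brightest tested probe set. Of 28 listed genes 18 were on the array under a symbol of their own and 12 were tested. In limma 0 of the 12 passed over all probe sets and 0 had an unadjusted p under 0.05, which 8.64% of all tested probe sets had, and their median log2 difference was 0.04, beside -0.02 for all tested probe sets. Akr1b8, an aldo-keto reductase, averaged 4282 ± 448 in hypoxic and 3768 ± 621 in normoxic pools (SD, n = 4 pools each; log2 0.19, limma, adjusted p = 0.711). Por, the electron donor of microsomal P450 enzymes, differed by 0.20, Akr1b7 by 0.08 and the side-chain cleavage enzyme gene Cyp11a1 by 0.09. In hypoxic pool 1 Nr5a1 lay at -1.67 on the log2 scale relative to the mean of the other hypoxic pools, while these genes lay between -0.71 and 0.28, with 4 of 12 below 0. Within groups 6 of the 12 correlated above 0 with Nr5a1 and 6 below, with a median r of -0.03 over 8 pools. The range was wide, from -0.433 for Akr1b7 to 0.79 for Akr1b8 and 0.871 for Scarb1, the last named after its value was seen. These correlations were not tested.

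Partners and regulators of SF-1 and DAX-1 showed no called change. Of 23 tested genes, of 40 listed, 0 passed in limma and 0 had an unadjusted p under 0.05 at their brightest probe set, with a median log2 difference of -0.05. The lowest p belonged to Crebbp, a coactivator with acetyltransferase activity, at 473 ± 24.0 in hypoxic and 396 ± 65.4 in normoxic pools (SD, n = 4 pools each, log2 0.26, limma, adjusted p = 0.607). The dimmer probe set of Crebbp differed by 0.06 (limma, adjusted p = 0.945). Usf1, whose protein binds the E box of the Nr5a1 promoter, averaged 485 ± 91.7 in hypoxic and 581 ± 27.9 in normoxic pools (log2 -0.27, limma, adjusted p = 0.611), while its dimmer probe set differed by 0.10. Usf2, the gene of its partner, is named after its values were seen: its brighter probe set differed by -0.02, and its dimmer one averaged 340.4 ± 47.4 in hypoxic and 462 ± 51.0 in normoxic pools without overlap (log2 -0.43, limma, unadjusted p = 0.00644, adjusted p = 0.327). The coactivator genes Pnrc2 and Ncoa3 differed by -0.23 and -0.40 (limma, adjusted p = 0.622 and 0.625).

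In the inhibin and activin pathway 20 of 27 listed genes were tested, and in limma 0 passed and 0 had an unadjusted p under 0.05, with a median log2 difference of -0.05. Acvrl1, a type I receptor of the family, averaged 119 ± 16.2 in hypoxic and 155 ± 23.3 in normoxic pools (SD, n = 4 pools each; log2 -0.34, limma, adjusted p = 0.592). The ligand gene Tgfb3 differed by 0.36, the decoy receptor gene Bambi by -0.23 and the inhibitory Smad gene Smad6 by -0.77 (limma, adjusted p = 0.601, 0.711 and 0.711). Smad6 was dim, at 103 ± 62.0 in hypoxic and 155 ± 48.4 in normoxic pools, with the lowest value in hypoxic pool 1. Inhbb, the other beta subunit gene that the cortex can pair with Inha, differed by 0.22 (limma, adjusted p = 0.847), and the activin-binding protein gene Fst by 0.03 (limma, adjusted p = 0.972), both named after their values were seen.

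Among other nuclear receptors 21 of 43 listed genes were tested, and 0 passed in limma, with a median log2 difference of -0.10. With each gene at its brightest probe set, a single gene of the 21 had an unadjusted p under 0.05, beside 8.64% of all tested probe sets. It was Nr1d2, a repressor of the circadian clock, at 597 ± 96.2 in hypoxic and 752 ± 41.7 in normoxic pools (SD, n = 4 pools each; log2 -0.34, limma, adjusted p = 0.422), with -0.31 on its second probe set. The glucocorticoid receptor gene Nr3c1 differed by -0.31, Nr2f6 by 0.15 and the retinoic acid receptor gene Rarb by -0.16 (limma, adjusted p = 0.633, 0.739 and 0.749), and the dimmer probe set of Nr2f6 by -0.51. Nr4a3, also among the 21, had a lower p on its dimmer probe set, described above (limma, unadjusted p = 0.00078, adjusted p = 0.159). On its brighter probe set the unadjusted p was 0.769 (limma).

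The genes around vanin-1 in pantetheine, coenzyme A and cysteamine metabolism did not pass either. Of 19 tested genes, of 28 listed, 0 passed in limma and 2 had an unadjusted p under 0.05, 1 in each direction, beside 8.64% of all tested probe sets, with a median log2 difference of 0.07. Slc5a6, the transporter that takes up pantothenate and biotin, averaged 932 ± 125 in hypoxic and 752 ± 48.3 in normoxic pools (SD, n = 4 pools each; log2 0.30, limma, adjusted p = 0.479). It was the 1 gene of the 19 without overlap between groups, beside 5.39% of all tested probe sets. Pank3, a pantothenate kinase that starts coenzyme A synthesis, averaged 1132 ± 83.9 in hypoxic and 1359 ± 174 in normoxic pools (log2 -0.25, limma, adjusted p = 0.541). Ppcs, the next enzyme of that pathway, differed by 0.16 and Gclc, the catalytic subunit for the first step of glutathione synthesis, by 0.22 (limma, adjusted p = 0.709 and 0.726).

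Immediate early genes, which like Nr4a1 respond within minutes to hormones and handling, were mixed. Of 24 tested genes, of 33 listed, 0 passed in limma and 3 had an unadjusted p under 0.05, beside 8.64% of all tested probe sets, with a median log2 difference of 0.02. Jun averaged 1336 ± 115 in hypoxic and 1068 ± 30.3 in normoxic pools (SD, n = 4 pools each; log2 0.32, limma, adjusted p = 0.305), and Junb 309.9 ± 68.7 in hypoxic and 458 ± 66.7 in normoxic pools (log2 -0.55, limma, adjusted p = 0.306). Klf2 differed by -0.31 and Klf10 by 0.27 (limma, adjusted p = 0.527 and 0.631). Of the 24, 4 had groups without overlap, beside 5.39% of all tested probe sets. Jun and Btg1, the second named after its values were seen, were higher in hypoxic pools, Btg1 by 0.17 (limma, adjusted p = 0.644), and Junb and Klf2 were lower. The other probe sets of Jun differed by 0.24 and 0.12, with overlap.

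**Figure D4:**
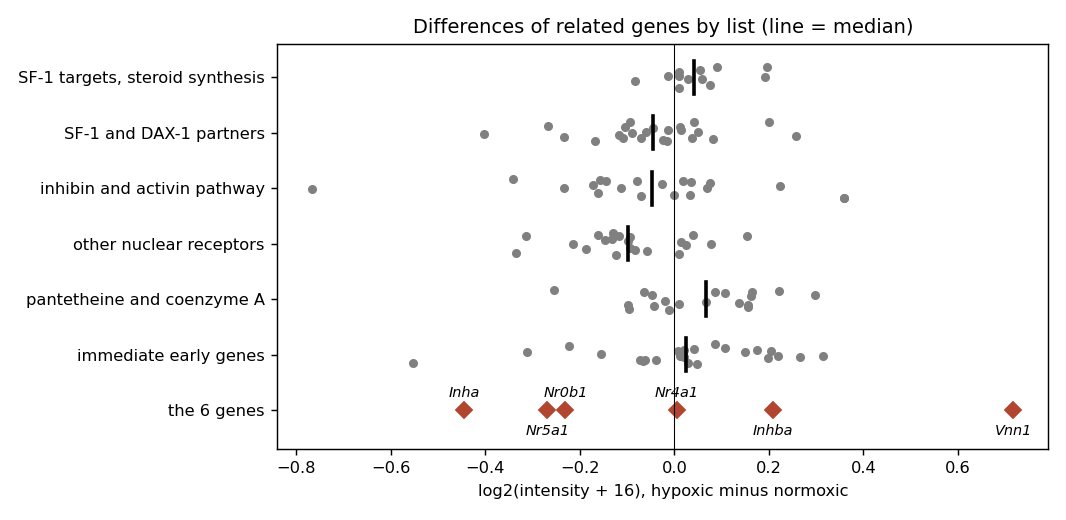
Log2 difference in intensity, hypoxic minus normoxic, of each tested gene in the 6 lists of related genes (grey points, 1 per gene at its brightest probe set, with the median as a line) and of the 6 genes described (diamonds). List medians lie between -0.10 and 0.07, and Vnn1, at 0.72, lies to the right of every gene in the lists.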

How the data were processed

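Total RNA of the pooled glands was copied to biotin-labelled cRNA, per the labels' protocols, and each pool was read on 1 array. The deposited table gives 1 linear intensity per probe set and pool. They appear to have been scaled by the authors. Averaged over the arrays, the mean was 500.1 once the top and bottom 2% of values of each array were dropped. The software that summarised the probes and the genome build are not given in the sources used here. Of 15923 probe sets 57 were controls. Of the rest, 12783 had 1 symbol in the platform annotation, 312 several and 2771 none, and genes were named only from the first kind.

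Values under 1 were set to 1, 16 was added and log2 taken. Array medians differed by at most 0.117, under the limit of 0.2, so no further normalization was made. Probe sets in the lowest 30% by mean log2 value (signal under 95.2) were left out. The groups were compared in limma 3.58.1 (eBayes with a variance trend, two-sided, Benjamini-Hochberg over 11106 probe sets) in R 4.3.3; single values were compared by exact permutation. The fit was run on simulated data with independent noise for each probe set and pool. Effects shared by many probe sets of a pool were not simulated, so that run says nothing about them. Python 3.11.15, pandas 2.3.3 and matplotlib 3.10.9 were used for promoter windows and plots. The members and lists were chosen with earlier results of these data known. Named are the 6 genes, from each list the 4 genes of lowest p, the 3 genes most like each of the 6, and the brightest genes of those marker lists that bear on a value given; others are said to be named after their values were seen. Alternatives were other offsets, filters, normalizations and variance models, the replicate number as a block, probe sets averaged, each pool left out and 2 RNA integrity ratios, the beta-actin one added after seeing the data.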

Additional observations from a re-analysis of the deposited data

Results flagged for a closer look

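Of 40 groups of 4 pools checked for a sample far from the others, over the 6 genes, the marker lists and the integrity ratios, 1 stood out, where chance flags about 1 in 20. The summed intensity of the gonad marker genes was 188 in hypoxic pool 4, while the other hypoxic pools lay between 245.3 and 257.1, and the normoxic pools ranged from 178 to 273. These 5 genes were dim, and 3 of them averaged above the 95th percentile of the bacterial controls. The check used intensities that were not log-transformed. On that scale Nr5a1 in hypoxic pool 1 did not reach the limit, with a gap to the next pool of 0.751 of the group's range. The check was not run on the log2 scale of the fits and correlations. It therefore does not decide whether this pool, on which the sign of the Nr5a1 difference rested, stands out on the log2 scale.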

How the results depend on the processing

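Over all probe sets 20 passed in limma. The count was 0 with the Gapdh ratio as a covariate, with no filter on dim probe sets and with no variance trend (lowest adjusted p in limma 0.0819, 0.0575 and 0.077), and 31 when that of beta-actin was fitted instead. With 1 pool left out it ran from 0 to 31. Leaving out hypoxic pool 1 gave the 31. Hypoxic pool 4 gave 2 and normoxic pool 4 gave 1, and each of the other pools gave 0. The causes were not tested. The log2 differences of the 6 genes moved by less than the gene's within-group SD between pools in each of the alternatives run. That SD is larger than the standard error of the difference for each gene, so this is a lenient measure. Nr5a1 went from -0.27 to 0.15 without hypoxic pool 1, and Inhba from 0.21 to -0.04 without normoxic pool 3. The sign of Nr4a1 also changed with the pool left out. Besides leaving out pools, Nr5a1 ranged from -0.28 to 0.11, Inhba from 0.00 to 0.26, Nr4a1 from 0.01 to 0.13, Nr0b1 from -0.27 to -0.19, Inha from -0.47 to -0.33 and Vnn1 from 0.64 to 0.76. In 6 lists of related genes 0 passed in limma under every alternative run. For pairs of genes, 0 passed under those run. The r of Vnn1 with Inha, -0.0588, turned to 0.0987 with arrays scaled to the same median. With 1 pool left out it ranged from -0.31 to 0.56, that of Inha with Nr4a1 from -0.51 to 0.23, Nr0b1 with Inha from -0.19 to 0.21, Nr0b1 with Nr4a1 from -0.38 to 0.46 and Vnn1 with Nr4a1 from -0.35 to 0.16. Replicate numbers recur in both groups, and deviations of same-numbered pools correlated at 0.323, 0.003, 0.186 and -0.043. The numbers were not taken as pairs in the main fit. With the replicate block 18 probe sets passed in limma. Hypoxic pools 1 and 3 correlated best with the normoxic pool of their own number. Hypoxic pool 2 correlated best with normoxic pool 3, and hypoxic pool 4 with normoxic pool 2. The beta-actin ratio rose in the order of pools 1, 2, 4 and 3 in both groups. Whether pools of the same number shared handling was not tested, and permutation within groups treats the pools as independent.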
